A study of Homo sapiens with 36 samples.

Results

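The 30 genes described here encode enzymes that build cholesterol and fatty acids, together with the regulators of that synthesis. They were listed by name for their place in these pathways, with earlier results of these data known, and were found by gene symbol among the 60725 Ensembl genes of the deposited tables. They comprised 18 sterol pathway enzymes (ACAT2, HMGCS1, MVK, PMVK, MVD, IDI1, FDPS, FDFT1, SQLE, LSS, CYP51A1, TM7SF2, MSMO1, NSDHL, HSD17B7, EBP, SC5D and DHCR7), 4 regulators or transport genes (INSIG1, SREBF1, SREBF2 and STARD4) and 8 fatty acid enzymes (ACLY, ACSS2, ACACA, FASN, SCD, ELOVL6, FADS1 and FADS2). All 30 are annotated as protein coding.

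Their mRNA was measured by RNA-seq in 36 libraries that formed 18 groups of 2, from a pair of established breast lines. MCF-10A ER-Src cells are non-transformed breast epithelial cells that carry v-Src joined to the ligand-binding part of the estrogen receptor, and tamoxifen (TAM) switches on their transformation, with ethanol (ETH) as the vehicle. The labels name the Src inhibitor AZD0530 beside tamoxifen and do not say which of these libraries received it, nor for how long they were treated. In ETH and in TAM, these cells received a control siRNA (Ctrli) or an siRNA pool against YAP (YAPi), TAZ (TAZi), STAT3 (STAT3i) or JUNB (JUNBi). All ER-Src cells grew in 5% charcoal-stripped serum with EGF, hydrocortisone, cholera toxin and 10 μg/ml insulin. Every ER-Src group thus shared a stripped serum and an added inducer of lipid synthesis. MDA-MB-231, a triple-negative breast cancer line, was depleted in set 1 of YAP, TAZ, both (YAPi_TAZi) or TEAD (TEADi). In set 2 it was depleted of JUNB or STAT3, and each set had its own Ctrli. For this line the methods name DMEM with FBS, and neither stripping nor insulin. An siRNA lowers an mRNA without removing it, each line is a single cultured line, and nothing in the labels says that the 2 libraries of a group came from separate cultures, so p-values measure the spread between libraries, which may be technical.

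Summed expected counts per library were 6419720 to 19161700 in ER-Src cells, 1411304 to 2784605 in the set 1 knockdowns, 13456784 and 13534560 in the set 1 controls and 7290499 to 18076158 in set 2. The set 1 controls differed from the set 1 knockdowns in kind as well as depth. A set of 6 genes of RNAs without a poly(A) tail took 0.002784% and 0.004072% of the control counts, against 8.712% to 11.76% in the knockdowns. Library type and knockdown therefore cannot be told apart in set 1. Within ER-Src cells, the gap between gene length and effective length was 49.47 to 49.49 bases for Ctrli, YAPi and TAZi and 49.0 for STAT3i and JUNBi, so for the latter pair a sequencing difference and the knockdown cannot be told apart either. In every knockdown group, both libraries held fewer normalized counts of the targeted YAP1, WWTR1 (TAZ), STAT3, JUNB or TEAD1 than both of their controls. In set 1, WWTR1 was also below its controls (386.4 and 363.1) in YAPi (132.9 and 211.7) and TEADi (187.3 and 223.3). TEAD1 was the only TEAD gene examined. Epithelial and basal markers (CDH1, EPCAM, KRT5, KRT14, KRT17 and TP63) summed to between 2026.6 and 4241.7 TPM (a level per length, scaled to a common total in each library) in ER-Src and to 4.75 to 24.03 in MDA-MB-231, while the mesenchymal VIM, ZEB1 and CDH2 summed to 190.26 to 345.28 and to 376.0 to 2606.09. The adipocyte genes ADIPOQ, PLIN1 and LEP and the leukocyte genes PTPRC and CD3E were under 1 TPM in all 36 libraries, as were the fibroblast genes COL1A1 and PDGFRB in ER-Src and DCN in MDA-MB-231. The other markers on these lists were detected: the adipocyte gene CFD reached 0.38 TPM in ER-Src and 12.46 in MDA-MB-231, the leukocyte gene CD68 spanned 1.86 to 18.06 and 26.17 to 148.2, and COL1A1 and PDGFRB reached 4.88 and 5.91 in MDA-MB-231. The fibroblast gene DCN spanned 29.98 to 259.33 TPM in ER-Src.

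Cells build sterols from acetyl-CoA through the mevalonate pathway and fatty acids from the same precursor through malonyl-CoA. The transcription factors SREBP-1 (SREBF1) and SREBP-2 (SREBF2) switch on both sets of enzymes. When sterols are plentiful, INSIG1 holds the SREBP precursors in the endoplasmic reticulum, and INSIG1 is itself an SREBP target, so its mRNA is a common reading of SREBP activity. SREBPs bind the sterol regulatory element, usually beside NF-Y, which reads the CCAAT box. FASN (fatty acid synthase) and SCD (stearoyl-CoA desaturase) are often abundant in breast tumours.

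Promoters of RefSeq (GRCh38.p14), from 250 bases before to 50 bases after the start, were held for 26 of the 30 genes (all but ACAT2, FDFT1, SQLE and FASN) and searched on both strands. A gene with several starts had several windows (36 for the 26 genes, 35116 for all genes) and counted once if any of them held the motif. The sterol regulatory element TCACNCCAC was in 1 of 26, that of SREBF2 (133 bases before the start), against 1.4% of 27305 genes. Its shorter form CACNCCAC, which overlaps it, was in 6 of 26 (23.1%: IDI1, SC5D, INSIG1, SREBF2, ACACA and SCD) against 7.0%. The NF-Y box CCAAT was in 21 of 26 (80.8%) against 39.7%, the TEAD motif GGAATG in 5 (19.2%: PMVK, HSD17B7, EBP, STARD4 and FADS2) against 16.7%, and the AP-1 motif TGANTCA in 0 against 9.4%. A match is a string of letters and not a shown site of binding. The 250 bases before the start are printed for both regulators with a sterol element, for HMGCS1, the enzyme that commits acetyl-CoA to the mevalonate pathway, and for ACSS2, the gene with the largest fold change under YAPi in ER-Src cells. HMGCS1 and ACSS2 had 2 windows each, and the first listed is printed. That of ACSS2 precedes a RefSeq start that lies inside the gene as GENCODE annotates it. Capitals mark TCACNCCAC or CACNCCAC and CCAAT on either strand (ATTGG is CCAAT read from the other strand), and HMGCS1 holds 2 such boxes.
SREBF2, chr22:41832855-41833104, plus strand: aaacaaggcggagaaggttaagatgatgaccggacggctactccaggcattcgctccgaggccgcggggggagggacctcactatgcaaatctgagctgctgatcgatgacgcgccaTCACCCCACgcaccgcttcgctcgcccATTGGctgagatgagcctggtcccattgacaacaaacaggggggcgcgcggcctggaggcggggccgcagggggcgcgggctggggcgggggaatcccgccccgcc
INSIG1, chr7:155297628-155297877, plus strand: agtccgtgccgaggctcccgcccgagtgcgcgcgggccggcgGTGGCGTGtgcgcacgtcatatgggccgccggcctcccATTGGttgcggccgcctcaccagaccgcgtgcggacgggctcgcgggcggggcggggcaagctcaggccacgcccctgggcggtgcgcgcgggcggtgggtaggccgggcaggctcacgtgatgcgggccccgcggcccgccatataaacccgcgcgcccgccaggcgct
HMGCS1, chr5:43313413-43313662, minus strand: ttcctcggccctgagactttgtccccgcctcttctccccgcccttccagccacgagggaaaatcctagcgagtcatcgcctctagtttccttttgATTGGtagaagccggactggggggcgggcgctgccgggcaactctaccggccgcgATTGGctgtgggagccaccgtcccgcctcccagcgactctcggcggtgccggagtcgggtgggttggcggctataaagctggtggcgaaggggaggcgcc
ACSS2, chr20:34874739-34874988, plus strand: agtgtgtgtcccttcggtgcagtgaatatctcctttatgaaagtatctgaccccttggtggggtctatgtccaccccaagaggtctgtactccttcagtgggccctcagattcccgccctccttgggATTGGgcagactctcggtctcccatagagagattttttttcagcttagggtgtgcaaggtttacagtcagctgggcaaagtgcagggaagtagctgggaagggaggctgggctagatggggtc

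Levels per length spanned a wide range. In the 2 Ctrli ETH libraries FDPS, which makes farnesyl diphosphate for sterols and protein prenylation, was highest at 598.7 and 479.3 TPM, followed by FDFT1 (squalene synthase) at 207.54 and 160.47. TM7SF2, a sterol reductase, was lowest at 3.15 and 2.88, then SREBF2 at 7.82 and 6.63, which overlapped STARD4 at 8.95 and 7.72. FDPS and TM7SF2 lay apart from their neighbours by more than the spread of the 2 libraries, while neighbours low in the order such as FASN (15.0 and 14.98), NSDHL (17.34 and 13.45) and MVK (18.69 and 16.7) overlapped or nearly met. The 30 genes together summed to 2182 and 1771 TPM in Ctrli ETH, 1493 and 1408 in Ctrli TAM, 1194 and 882.1 in YAPi ETH and 2355 and 2281 in STAT3i TAM. In MDA-MB-231 the 2 control sets differed from each other: HMGCS1 stood at 15.34 and 17.07 TPM in set 1 and at 1.05 and 1.24 in set 2, and SCD at 75.14 and 76.08 against 7.22 and 8.12. Both control sets were of a like library kind, with 0.002784% to 0.009151% of counts in the 6 genes without a poly(A) tail. Their length gaps were 75.0 and 74.52 bases. Depths differed, at 13456784 and 13534560 summed counts against 7290499 and 8093145. No test was made between the sets, and the cause of the difference was not tested.

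Each comparison below is a separate DESeq2 run of 2 against 2 libraries (8 libraries for interactions and for set 1 without controls). A gene is called at an adjusted p under 0.01 over all genes tested. For a called gene, groups that do not overlap follow largely from its selection and are no separate support. The share of all genes without overlap was not counted. Values per library are counts divided by size factors computed over all ER-Src libraries, over set 1 or over set 2, and fold changes are on the log2 scale with their standard error (SE). FADS1 and FADS2 overlap on opposite strands of chromosome 11, ACAT2 overlaps TCP1, and FDPS and HSD17B7 have pseudogene copies. Reads could be split among these, and whether counting used strand is not given in the sources used here, so their values are less certain.

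**Figure D1:**
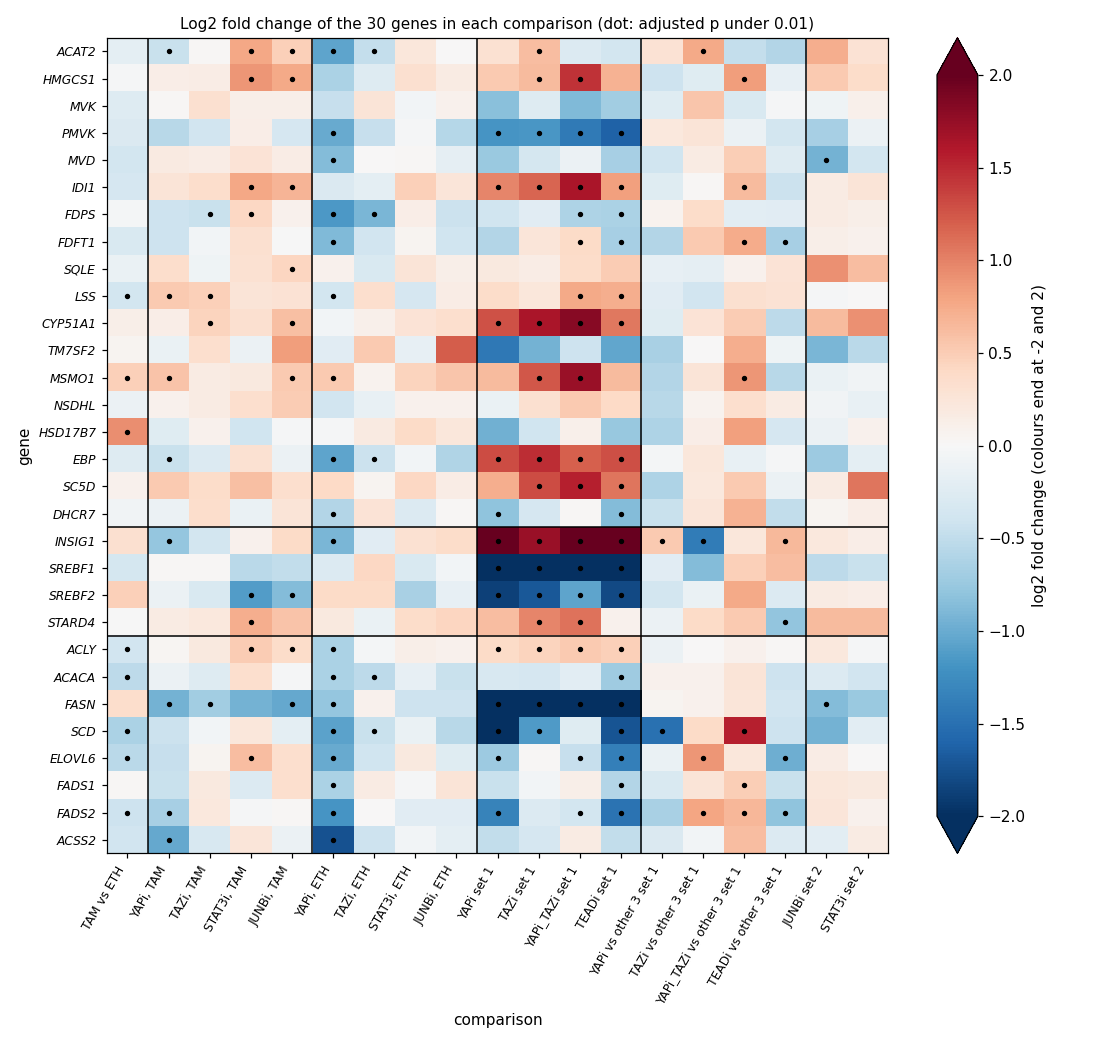
Colours give the log2 fold change of each of the 30 genes (vertical axis, in the order sterol enzymes, regulators and transport, fatty acid enzymes) in each comparison without the interactions (horizontal axis), and a dot marks an adjusted p under 0.01. Lower values run through the fatty acid genes in YAPi ETH, where 17 genes were lower, and INSIG1, SREBF1 and FASN pass the ends of the scale in several set 1 comparisons.

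The first question was what induction of Src did to these genes under the control siRNA. In TAM against ETH, 2 of 30 genes were higher and 6 were lower, against 4.62% and 1.59% of the 15724 genes tested. The fatty acid enzymes supplied 5 of the 6 lower calls and had a median log2 fold change of -0.404, beside -0.124 for the sterol enzymes and -0.012 for all genes tested. Among sterol enzymes, HSD17B7, a ketosteroid reductase, rose from 339 and 300 normalized counts to 608 and 598 (log2 fold change 0.93, SE 0.20, adjusted p = 5.7e-05), and the sterol oxidase MSMO1 rose by 0.48 while lanosterol synthase LSS fell by 0.37. The libraries of the 2 groups did not overlap for HSD17B7. SCD, which puts the double bond into stearate (ENSG00000099194.5, chr10:100347233-100364826, plus strand of hg38), went from 16753 and 16726 counts to 11048 and 10280 (log2 fold change -0.64, SE 0.09, adjusted p = 6.6e-12). The elongase ELOVL6 went from 1761 and 1675 to 1177 and 1160 (-0.54, SE 0.13, adjusted p = 0.00039) and acetyl-CoA carboxylase ACACA from 4397 and 4246 to 3229 and 2708 (-0.53, SE 0.12, adjusted p = 0.00016). For each of these 3 genes both TAM libraries lay below both ETH libraries. FADS2 (-0.42) and ACLY (-0.39) were also lower.

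FASN (ENSG00000169710.7, chr17:82078338-82098294, minus strand) and the regulators gave no call between TAM and ETH. FASN had 2839 and 3278 counts in ETH and 4442 and 3266 in TAM, so the groups overlapped (log2 fold change 0.35, SE 0.15). SREBF2 had 716 and 725 in ETH and 1047 and 941 in TAM, without overlap, at 0.48 (SE 0.15, adjusted p = 0.024). INSIG1 (2714 and 2615, then 2868 and 3725), SREBF1 (757 and 882, then 670 and 600), HMGCS1 (5223 and 4308, then 4565 and 4785) and SQLE (3637 and 3034, then 3026 and 3023) had adjusted p-values of 0.15 to 0.99. Of HMGCS1 the TAM values lay inside the ETH range. Leaving out 1 library left 2 calls without Ctrli TAM replicate 1 and 1 call without any of the other 3, and SCD was called in 4 of 4 such runs. A single fit over all ER-Src groups called 2 genes and edgeR 3.

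**Figure D2:**
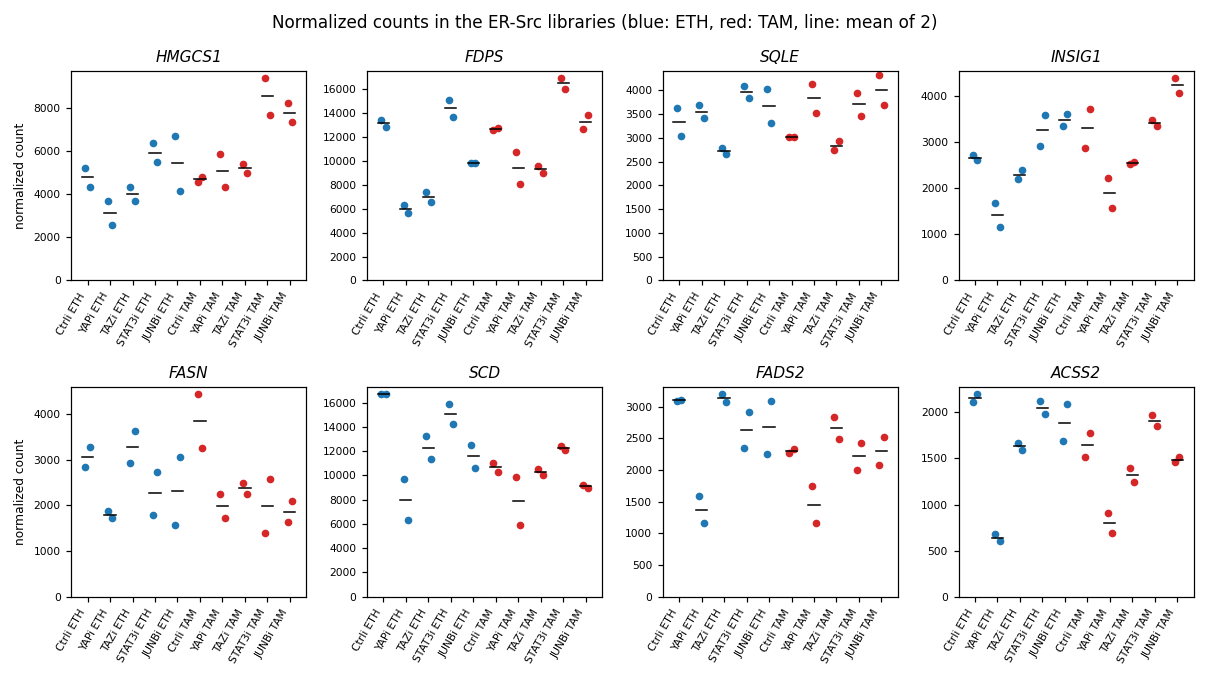
Points give the normalized counts (vertical axis, starting at 0) of 8 genes in each of the 2 libraries per ER-Src group (horizontal axis), in blue for ETH and red for TAM, and short lines give the mean of 2. ACSS2 is lowest in the YAPi groups, at 682.5 and 600 in ETH and 910 and 696 in TAM.

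Depletion of YAP in ETH gave the broadest change among the ER-Src comparisons by number of calls. Of 30 genes, 17 were lower and 1 was higher than in Ctrli ETH, against 6.47% and 5.11% of 14793 genes tested, and the median log2 fold change was -0.628, beside -0.003 for all genes. All 8 fatty acid enzymes were lower (median -0.889), as were 8 of 18 sterol enzymes (median -0.425) and INSIG1 of the 4 regulators and transport genes. The fibroblast marker DCN lay higher in both libraries of each YAPi and TAZi group than in the controls, at 60.55 and 58.18 TPM in Ctrli ETH, 180.24 and 146.1 in YAPi ETH and 154.42 and 136.62 in TAZi ETH, and at 67.28 and 64.36 in Ctrli TAM, 259.33 and 203.2 in YAPi TAM and 202.69 and 209.03 in TAZi TAM, while COL1A1 and PDGFRB stayed under 1 TPM. Its part in these results was not tested. Under alternative settings 14 to 19 genes were called, and 11 without Ctrli ETH replicate 1, 10 without Ctrli ETH replicate 2, 17 without YAPi ETH replicate 1 and 15 without YAPi ETH replicate 2.

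Along the sterol pathway, FDPS had 13460 and 12845 normalized counts in Ctrli ETH and 6298 and 5609 in YAPi ETH (log2 fold change -1.15, SE 0.11, adjusted p = 1.9e-25). Both knockdown libraries lay far below both controls. The other lower sterol enzymes were the isomerase EBP (-1.06), the thiolase ACAT2 (-1.05), phosphomevalonate kinase PMVK (-1.01), FDFT1 (-0.89), the decarboxylase MVD (-0.86), the reductase DHCR7 (-0.59) and LSS (-0.36). MSMO1 went the other way, from 2705 and 2299 to 3985 and 3278 (0.53, SE 0.13, adjusted p = 0.001). HMGCS1 had 5223 and 4308 in the controls and 3656 and 2552 in the knockdowns, without overlap, but the spread kept it from a call (-0.63, SE 0.30, adjusted p = 0.14). The epoxidase SQLE had 3637 and 3034 against 3684 and 3425, which overlapped.

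Of the regulators, INSIG1 (ENSG00000186480.12, chr7:155297776-155310235, plus strand) fell from 2714 and 2615 to 1688 and 1151 (log2 fold change -0.91, SE 0.16, adjusted p = 6e-07). SREBF1 had 757 and 882 against 729 and 620 (-0.28, adjusted p = 0.27) and SREBF2 716 and 725 against 855 and 1034 (0.38, adjusted p = 0.081), so neither factor's own mRNA was called while the mRNA of the SREBP target INSIG1 was. The sterol carrier STARD4 was not called.

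ACSS2, which makes acetyl-CoA from acetate (ENSG00000131069.19, chr20:34872146-34927962 on the plus strand of hg38), had the largest fold change of all 30. It had 2108 and 2196 counts in Ctrli ETH and 682.5 and 600 in YAPi ETH, 3.36-fold lower (log2 fold change -1.75, SE 0.14, adjusted p = 9.9e-36). FADS2, a desaturase of polyunsaturated fatty acids, fell from 3089 and 3115 to 1584 and 1159 (-1.18, SE 0.15, adjusted p = 1.5e-13). SCD fell from 16753 and 16726 to 9670 and 6347 (-1.07, SE 0.30, adjusted p = 0.0045), and here the 2 knockdown libraries differed from each other. FASN fell from 2839 and 3278 to 1885 and 1715 (-0.77, SE 0.13, adjusted p = 3.4e-08). For these 4 genes every YAPi ETH library lay below every Ctrli ETH library. ELOVL6 (-1.01), ACLY and ACACA (both -0.64) and FADS1 (-0.63) completed the group.

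In TAM the same depletion gave 6 lower and 2 higher calls, against 5.40% and 5.27% of 14528 genes tested, with a median of -0.115 beside 0.008 for all genes. ACSS2 was again the most changed, with 1513 and 1774 counts in Ctrli TAM and 910 and 696 in YAPi TAM (log2 fold change -1.03, SE 0.17, adjusted p = 8.9e-08). FASN had 4442 and 3266 against 2251 and 1716 (-0.95, SE 0.17, adjusted p = 1.6e-06), INSIG1 2868 and 3725 against 2228 and 1578 (-0.78, SE 0.18, adjusted p = 0.00023) and FADS2 2273 and 2327 against 1742 and 1164 (-0.66, SE 0.18, adjusted p = 0.0031). None of these 4 overlapped between the groups. ACAT2 (-0.45) and EBP (-0.44) were lower and MSMO1 (0.57) and LSS (0.52) higher. SCD had 11048 and 10280 against 9888 and 5882, with 1 knockdown library close to the controls and no call (-0.43, SE 0.36). HMGCS1 (0.13), SQLE (0.35), SREBF1 (0.02) and SREBF2 (-0.11) were not called. The number of calls was 2 without Ctrli TAM replicate 1, 3 without Ctrli TAM replicate 2, 7 without YAPi TAM replicate 1 and 3 without YAPi TAM replicate 2. edgeR called 1 gene. ACSS2 was called in all 6 other fits and all 4 runs with a library left out.

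The comparisons in ETH and in TAM used different control libraries, and an interaction term tested whether they differed. For YAPi, 4 genes had a more positive effect in TAM than in ETH and 0 a more negative one, against 0.179% and 0.319% of 15650 genes tested, with a median of 0.463 beside 0.006 for all genes. MVD, which had 2375 and 2532 counts in Ctrli ETH, 1412 and 1310 in YAPi ETH, 1745 and 2020 in Ctrli TAM and 2281 and 1963 in YAPi TAM, differed by 1.03 (SE 0.18, adjusted p = 2.8e-06). Its YAPi libraries lay below the controls in ETH and overlapped them in TAM. LSS had 2932 and 2882, 2269 and 2280, 2281 and 2176, and 3374 and 2990 in the same order (0.87, SE 0.15, adjusted p = 2.8e-06), so its YAPi libraries were below the controls in ETH and above them in TAM. FDPS, with 12590 and 12738 in Ctrli TAM and 10795 and 8063 in YAPi TAM, differed by 0.72 (SE 0.17, adjusted p = 0.0067). ACLY, which cleaves citrate to acetyl-CoA, had 10059 and 9656, 6652 and 6050, 7682 and 7253, and 8426 and 6790 (0.66, SE 0.16, adjusted p = 0.0056). MVD and LSS were called in 8 of 8 runs with 1 library left out. edgeR called 0 of the 30 (16 at an unadjusted p under 0.05, as with DESeq2), and a single fit over all groups called 1. The effect on FASN (-0.19), INSIG1 (0.12) and SCD (0.63, SE 0.48) did not pass the test of a difference.

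**Figure D3:**
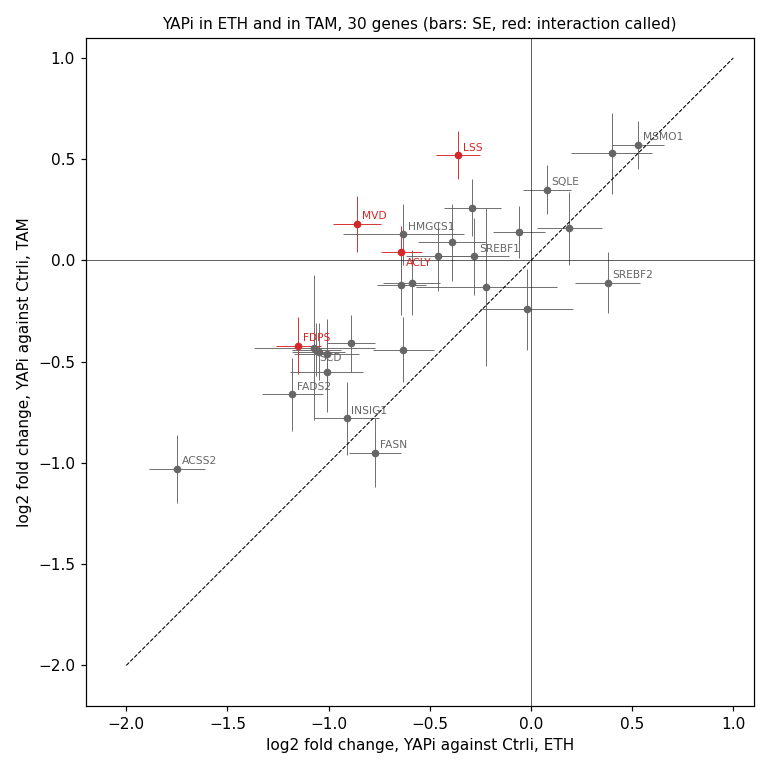
Each point is 1 of the 30 genes, with its log2 fold change under YAPi in ETH on the horizontal axis and in TAM on the vertical axis, bars of 1 SE and a dashed line of equality. The 4 genes in red (MVD, LSS, FDPS and ACLY) had a called interaction and lie above the line, and 14 genes are named.

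Depletion of TAZ, the paralog of YAP, was compared with the same controls. In ETH 0 were higher and 5 lower, against 2.60% and 2.64% of 14102 genes tested, with a median of -0.091 beside -0.008. FDPS had 13460 and 12845 counts in Ctrli ETH and 7395 and 6557 in TAZi ETH (log2 fold change -0.92, SE 0.10, adjusted p = 1.3e-16) and was called in all 6 other fits and all 4 runs with a library left out. ACACA had 4397 and 4246 against 3181 and 2808 (-0.53, SE 0.11, adjusted p = 1e-04). ACAT2 had 2725 and 2461 against 1971 and 1768 (-0.48, SE 0.12, adjusted p = 0.0032) and SCD 16753 and 16726 against 13230 and 11342 (-0.45, SE 0.10, adjusted p = 0.00059). The groups did not overlap for any of the 4, and EBP (-0.43) was the fifth. ACSS2 had 1667 and 1595 in TAZi ETH. FASN had 2927 and 3629, within reach of its controls (0.09). INSIG1 (-0.22), SREBF1 (0.42), SREBF2 (0.38), HMGCS1 (-0.26) and SQLE (-0.30) were not called. Without TAZi ETH replicate 1 there were 3 calls, and 1 without any of the other 3 libraries.

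In TAM, TAZi gave 2 higher and 2 lower calls, against 1.75% and 1.68% of 13729 genes tested, with a median of 0.115 beside -0.003. FASN had 4442 and 3266 counts in Ctrli TAM and 2497 and 2252 in TAZi TAM (log2 fold change -0.70, SE 0.15, adjusted p = 0.00013). FDPS had 12590 and 12738 against 9561 and 9038 (-0.44, SE 0.08, adjusted p = 9.6e-06). LSS had 2281 and 2176 against 3091 and 3127 (0.48, SE 0.10, adjusted p = 0.00019) and CYP51A1, the lanosterol demethylase, 3594 and 3614 against 4754 and 5014 (0.44, SE 0.09, adjusted p = 0.00016). None of these 4 overlapped between groups. INSIG1 (-0.37), SREBF1 (0.02), SREBF2 (-0.31), HMGCS1 (0.15), SQLE (-0.09) and SCD (-0.06) were not called. Calls fell to 2 without either Ctrli TAM library, 1 without TAZi TAM replicate 1 and 0 without TAZi TAM replicate 2, and edgeR called 0.

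The interaction for TAZi could be tested for 26 of 30 genes. FDPS had a more positive effect in TAM (0.46, SE 0.12, adjusted p = 0.0079) and FASN a more negative one (-0.81, SE 0.20, adjusted p = 0.0041), against 0.339% and 1.27% of the 4424 genes tested. FASN in Ctrli held 2839 and 3278 counts in ETH and 4442 and 3266 in TAM, so 1 control library stood apart. Without TAZi ETH replicate 1 there were 4 calls, without Ctrli TAM replicate 2 there was 1, and without any of the other 6 libraries there were 0. edgeR called 0, with 9 at an unadjusted p under 0.05 against 10 by DESeq2.

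**Figure D4:**
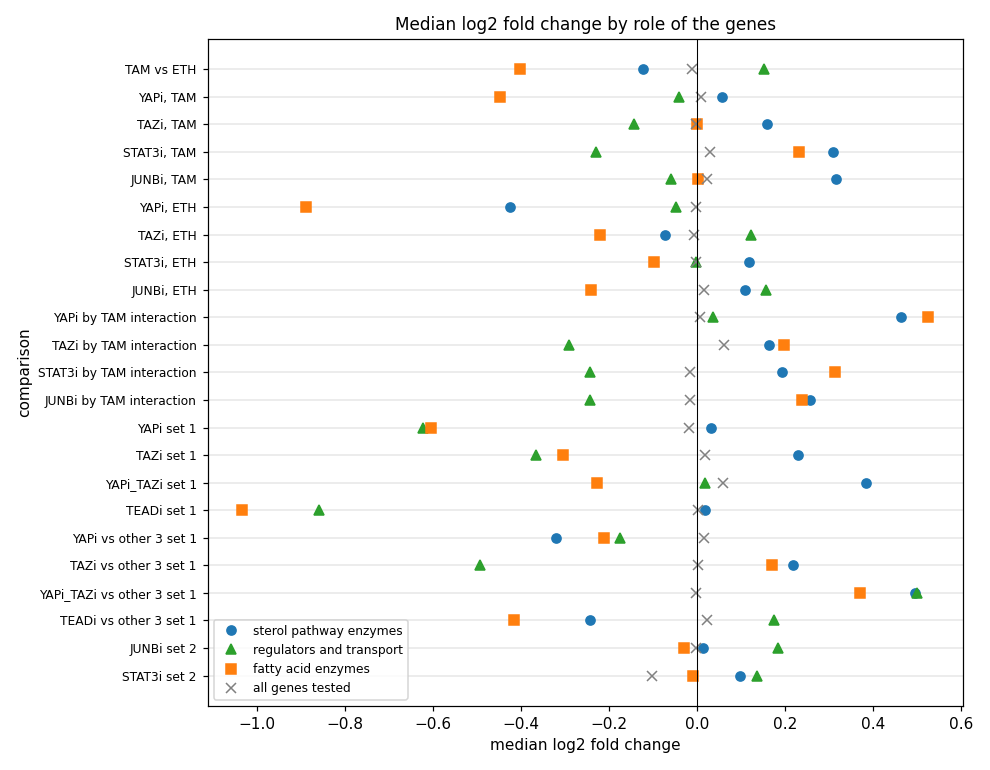
Symbols give the median log2 fold change (horizontal axis) of the sterol enzymes, the regulators and transport genes, the fatty acid enzymes and all genes tested in each of the 23 comparisons (vertical axis). The fatty acid median in YAPi ETH, at -0.889, lies farthest below 0 among the ER-Src comparisons.

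Under STAT3i in TAM 7 genes were higher (4 of 18 sterol enzymes, STARD4 and 2 of 8 fatty acid enzymes) and 1 lower, against 3.34% and 4.88% of 14194 genes tested, with a median of 0.274 beside 0.028. HMGCS1 had 4565 and 4785 counts in Ctrli TAM and 9362 and 7664 in STAT3i TAM (log2 fold change 0.89, SE 0.13, adjusted p = 2.1e-10). ACAT2 had 2247 and 2251 against 3958 and 3579 (0.77, SE 0.12, adjusted p = 2.7e-08) and the isomerase IDI1 2049 and 2155 against 3864 and 3202 (0.77, SE 0.14, adjusted p = 5.6e-07). Each STAT3i library of these 3 genes lay above both controls. FDPS (0.41), STARD4 (0.73), ELOVL6 (0.62) and ACLY (0.50) were also higher. SREBF2 had 1047 and 941 against 366 and 548 (-1.11, SE 0.20, adjusted p = 2.1e-06), below both controls. That SREBF2 call was lost with effective length offsets, for a reason that was not tested, and was kept in 2 of 4 runs with a library left out. INSIG1 (0.08), SREBF1 (-0.54), SQLE (0.31) and SCD (0.22) were not called. FASN had 4442 and 3266 against 1390 and 2570, without overlap and with a wide spread (-0.94, SE 0.48, adjusted p = 0.2). Calls numbered 3 without Ctrli TAM replicate 1, 4 without Ctrli TAM replicate 2, 4 without STAT3i TAM replicate 1 and 8 without STAT3i TAM replicate 2. HMGCS1, ACAT2 and IDI1 were called in all 4 and under all 6 other settings.

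JUNBi in TAM was compared with the same 2 control libraries as STAT3i. JUNB mRNA itself was lower under both: it had 2944 and 4116 counts in Ctrli TAM, 693 and 1007 in JUNBi TAM and 644 and 665 in STAT3i TAM (for STAT3i, log2 fold change -2.41, SE 0.16, adjusted p = 2.5e-47), so the 2 depletions are not separate tests of these genes. Here 7 genes were higher and 2 lower, against 2.84% and 4.06% of 13045 genes tested, with a median of 0.275 beside 0.021. HMGCS1 had 8190 and 7324 counts in JUNBi TAM (log2 fold change 0.75, SE 0.11, adjusted p = 2.9e-09) and IDI1 3676 and 2960 (0.68, SE 0.14, adjusted p = 3.5e-05), all above the controls. CYP51A1 (0.60), MSMO1 (0.52), ACAT2 (0.48), SQLE (0.43) and ACLY (0.37) were higher too. With a library left out, the HMGCS1 call was kept in each run. Those of IDI1, CYP51A1, MSMO1 and SQLE were lost in most runs, and those of ACAT2 and ACLY in every run. FASN had 1634 and 2097 (-1.03, SE 0.16, adjusted p = 3.6e-08) and SREBF2 523 and 550 (-0.87, SE 0.17, adjusted p = 1.2e-05), all below the controls, and with a library left out FASN was called in 3 of 4 runs and SREBF2 in 2 of 4. INSIG1 (0.38), SREBF1 (-0.50) and SCD (-0.20) were not called. Calls numbered 1 without Ctrli TAM replicate 1, 3 without Ctrli TAM replicate 2, 2 without JUNBi TAM replicate 1 and 7 without JUNBi TAM replicate 2. edgeR called 4 and a single fit over all groups 3.

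In ETH, neither STAT3i (median 0.034 beside -0.003) nor JUNBi (0.056 beside 0.016) gave a call by DESeq2 or by edgeR. The backgrounds were 0.0358% higher and 0.153% lower of 19578 genes for STAT3i, and 1.19% and 1.61% of 15009 genes for JUNBi. At an unadjusted p under 0.05, DESeq2 had 4 of 30 for STAT3i and 7 for JUNBi, and edgeR 5 and 6. The replicates of these groups differed from each other. LSS had 1831 and 2748 counts in STAT3i ETH and 2382 and 4124 in JUNBi ETH, against 2932 and 2882 in Ctrli ETH. SREBF1 had 500 and 814, and 491 and 1101. JUNB itself had 152.6 counts in JUNBi ETH replicate 1 and 413.2 in replicate 2. Without STAT3i ETH replicate 2, 5 genes were called. Without JUNBi ETH replicate 1 there were 5 calls and without replicate 2 there were 10. A count of 0 here does not show that the depletions had no effect.

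The interactions compared TAM minus ETH within STAT3i or JUNBi with TAM minus ETH within Ctrli, so a constant difference between the sequencing of the 2 sets of libraries cancels in them. They gave 0 calls for STAT3i (median 0.201, beside backgrounds of 0.450% higher and 0.976% lower of 15778 genes) and 0 for JUNBi (0.215, with 0.0690% and 0.219% of 15949 genes). At an unadjusted p under 0.05 there were 7 and 4 by DESeq2 and 7 and 3 by edgeR. HMGCS1 was at 0.54 (SE 0.21, adjusted p = 0.25) for STAT3i and at 0.56 (SE 0.31, adjusted p = 1) for JUNBi, and SREBF2 at -0.47 (SE 0.31) and -0.73 (SE 0.35). Without JUNBi ETH replicate 1 there were 6 calls, and without either STAT3i ETH library there was 1.

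Genes around these pathways were counted from lists of neighbours: 9 of the sterol branch, 9 of the SREBP machinery, 10 of sterol handling and efflux, 19 of other fatty acid synthesis and activation, and 10 of fatty acid oxidation. In TAM against ETH under Ctrli, the efflux pump ABCA1 (log2 fold change 4.06, SE 0.28) and the lysosomal exporter NPC1 (1.57, SE 0.14) were higher, 2 of 10 handling genes, with 0 lower. Of the 19 other fatty acid genes 3 were higher (ACSL1 at 1.23 among them) and 3 lower (LPIN1 -1.32 and GPAM -0.92), and CPT1A (-0.72), the gate of mitochondrial oxidation, was the 1 oxidation gene lower. None of the 9 SREBP machinery or 9 sterol branch genes was called there, and over all genes 4.62% were higher and 1.59% lower. Under STAT3i in TAM 1 handling gene was higher and 3 lower, 4 other fatty acid genes were higher and 3 lower, and 1 oxidation gene was higher (3.34% and 4.88% over all genes). ABCA1 (-3.72), LPCAT3 (-1.47) and NPC1 (-0.97) were lower and LPIN1 (1.54), SCD5 (1.34) and GPAM (1.08) higher, and the interaction was called for ABCA1 (-2.23), NPC1 (-0.89) and LPIN1 (1.36). Under JUNBi in TAM 5 other fatty acid genes were higher and 2 lower, 2 sterol branch genes and 1 handling gene were higher and 1 SREBP machinery gene lower (2.84% and 4.06% over all genes). The citrate carrier SLC25A1 was lower (-1.48) and HACD2 higher (1.03). YAPi in ETH, where 17 of the 30 were lower, gave 1 higher and 2 lower of 19 other fatty acid genes (ME1 0.86, TECR -0.74, LPIN1 -0.42), 2 higher and 1 lower of 10 oxidation genes (CPT1A 0.63, HADHB 0.47, ECI1 -0.67), 1 and 1 of 9 sterol branch genes (ERG28 0.76, LBR -0.47), 0 and 1 of 10 handling genes (NPC2 -0.55) and 0 of 9 SREBP machinery genes, beside the 5.11% higher and 6.47% lower of all genes tested.

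In MDA-MB-231 set 1 every knockdown differed from Ctrli in the regulators and in FASN, in libraries of another type and depth. The share of calls was large for all genes as well. YAPi had 5 higher and 8 lower of the 30 (12.3% and 12.1% of 16582 genes tested), TAZi 10 and 5 (16.0% and 16.8% of 17739), YAPi_TAZi 11 and 7 (17.3% and 18.2% of 19104) and TEADi 7 and 12 (13.5% and 14.0% of 17017). Member medians were -0.424, -0.019, 0.114 and -0.608 in that order, and all 4 comparisons shared the same 2 controls. With log2 of TPM plus 1, member medians were -1.498, -1.278, -0.974 and -1.58, beside -1.081, -0.985, -0.838 and -1.044 for all genes tested. INSIG1 had 166 and 208 normalized counts in Ctrli, 1642 and 1818 in YAPi, 585 and 674 in TAZi, 1260 and 1681 in YAPi_TAZi and 1768 and 1919 in TEADi (log2 fold changes of 3.19, 1.72, 2.94 and 3.27). SREBF1 had 376 and 369 in Ctrli and 31.9 to 103.2 over the 8 knockdown libraries (-2.74, -3.27, -2.25 and -2.10). FASN had 751 and 679 in Ctrli and 72.3 to 132.5 in the knockdowns (-2.74, -2.75, -2.63 and -3.09). None of these overlapped between Ctrli and knockdowns.

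SREBF2 (284 and 282 counts in Ctrli) was lower in each knockdown (-1.86, -1.70, -1.05 and -1.81) and CYP51A1 (148 and 147) higher (1.28, 1.64, 1.82 and 1.05). SCD had 693 and 715 in Ctrli and was lower in YAPi (-2.51), TAZi (-1.13) and TEADi (-1.72), while in YAPi_TAZi it was not called (-0.24, SE 0.09, adjusted p = 0.016). HMGCS1 was higher in TAZi (0.64) and YAPi_TAZi (1.45) and not called in YAPi (0.52) or TEADi (0.70). SQLE, at 46.4 to 80 counts in all 10 libraries, was not called. When the controls of both sets were pooled, 3, 6, 7 and 4 genes were called, SREBF1, FASN and INSIG1 among them in each comparison. The set 2 controls were of a like library type to the set 1 controls. Pooling therefore left the difference in library type from the knockdowns in place, and these calls do not test it. Without a library, the counts were 8, 8, 18 and 10 for YAPi, 10, 9, 16 and 13 for TAZi, 9, 8, 15 and 15 for YAPi_TAZi and 8, 8, 20 and 17 for TEADi, in each case without Ctrli replicate 1, Ctrli replicate 2 and then the knockdown's own replicates 1 and 2. With log2 of TPM plus 1 the median over all genes tested was itself between -1.081 and -0.838 in these comparisons. With TPM plus 0.1 it was between -1.358 and -1.141, so directions here depend on the scaling.

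**Figure D5:**
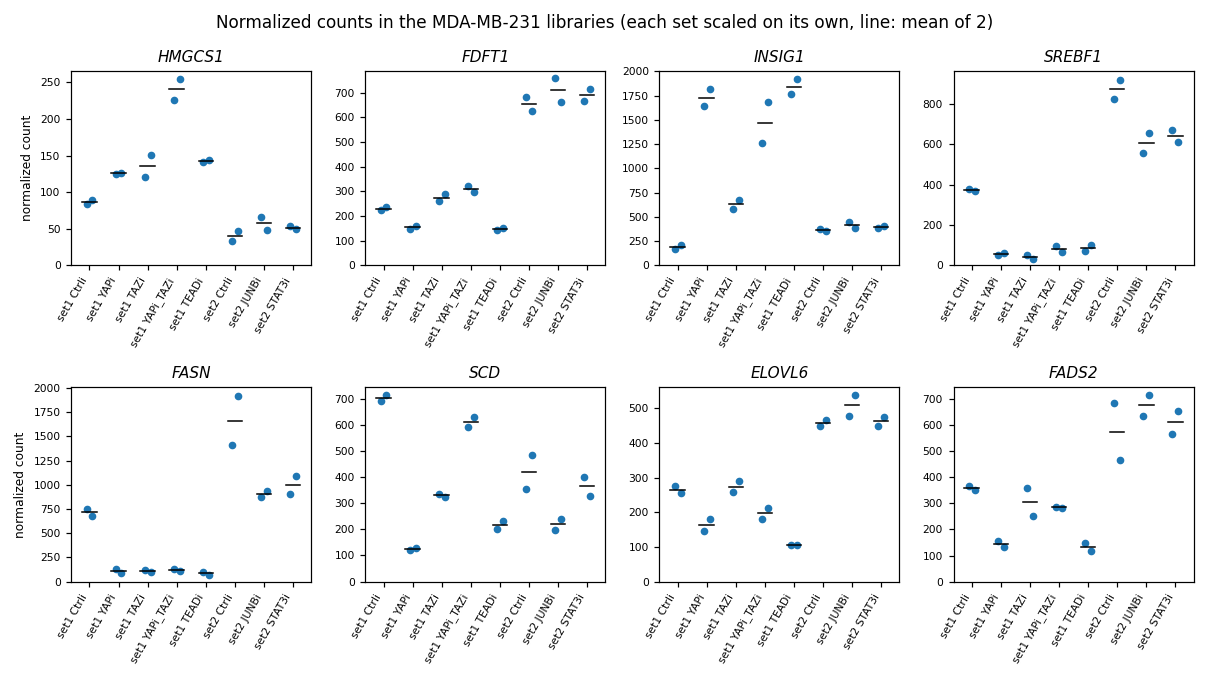
Points give the normalized counts (vertical axis, starting at 0) of 8 genes in each of the 2 libraries per MDA-MB-231 group (horizontal axis), with size factors computed within each set, so heights are not comparable between sets, and short lines give the mean of 2. INSIG1 is at 166 and 208 in set 1 Ctrli and at 585 or more in each set 1 knockdown library.

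Each set 1 knockdown was also compared with the mean of the other 3, without the controls. The 8 knockdown libraries were of 2 kinds, with 1 of each kind in every group. Replicate 1 had a length gap of 48.0 bases and 16.41% to 17.45% of TPM in the 6 genes without a poly(A) tail. Replicate 2 had a gap of 74.56 or 74.57 and 41.29% to 42.61%. Totals ran from 1411304 to 2784605, and same-numbered libraries deviated together (r of 0.674 to 0.735 over 6998 genes, across 6 pairs of groups), so the fit with the replicate number as a block is given beside. YAPi gave 1 higher and 1 lower call of 27 genes tested (4.45% and 2.38% of 9063), and with the block 1 and 5 (7.23% and 3.95%). SCD had 122 and 128 counts in YAPi, 337 and 324 in TAZi, 591 and 628 in YAPi_TAZi and 203 and 232 in TEADi, and was lowest in YAPi (log2 difference -1.50, SE 0.17, adjusted p = 6.8e-16). Its 4 groups did not overlap. INSIG1 was the higher call (0.53, SE 0.12, adjusted p = 0.00036), and the block added FADS2 (-0.65), SC5D (-0.60), FDFT1 (-0.59) and MSMO1 (-0.58).

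TAZi gave 3 higher and 1 lower calls (3.64% and 2.35% of 11126 genes tested), and with the block 4 and 1 (5.37% and 4.33%). INSIG1, at the 585 and 674 counts given above, was below every other knockdown library (log2 difference -1.40, SE 0.13, adjusted p = 2.2e-25). ELOVL6 had 257 and 290 in TAZi and 105 to 212 in the others (0.88, SE 0.18, adjusted p = 8.8e-05). FADS2 had 357 and 251 (0.79, SE 0.19, adjusted p = 0.00086) and overlapped YAPi_TAZi at 287.5 and 282. ACAT2 had 259 and 240, above the 124 to 216 of the others (0.76, SE 0.19, adjusted p = 0.0013). The block added FDFT1 (0.53). Without either TAZi library, or without TEADi replicate 1, INSIG1 was the 1 call that remained.

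YAPi_TAZi gave 7 higher and 0 lower calls (2.27% and 3.86% of 11126 genes tested), and with the block 9 and 0 (4.27% and 5.76%), with a median of 0.487. With log2 of TPM plus 1 the median was 0.544, beside 0.09 for all genes tested. SCD (1.55, SE 0.15, adjusted p = 5.8e-23) was above every other knockdown library. MSMO1 had 383 and 496 counts against 168 to 373 (0.88, SE 0.20, adjusted p = 3e-04), HMGCS1 226 and 255 against 121 to 151 (0.83, SE 0.20, adjusted p = 0.00063) and FDFT1 322 and 298 against 143 to 289 (0.74, SE 0.17, adjusted p = 0.00054). None of these 4 overlapped. FADS2 (0.66), IDI1 (0.64) and FADS1 (0.49) were the other calls, and the block added DHCR7 (0.69) and CYP51A1 (0.50). SCD in the double knockdown lay above either single knockdown. Between 1 and 5 genes were called when 1 library was left out: 1 without TAZi replicate 1, YAPi_TAZi replicate 2 or TEADi replicate 1, 2 without TAZi replicate 2, 3 without YAPi_TAZi replicate 1, 4 without YAPi replicate 1 and 5 without YAPi replicate 2 or TEADi replicate 2. SCD was called in 8 of 8.

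TEADi gave 1 higher and 4 lower calls (3.94% and 3.95% of 10610 genes tested), and with the block 1 and 8 (6.11% and 5.58%), with a median of -0.305. With log2 of TPM plus 1 the median was -0.318, beside -0.044 for all genes tested. ELOVL6 had 105.1 and 105.8 counts against 147 to 290 (-0.97, SE 0.21, adjusted p = 9.7e-05). FADS2 had 149 and 119 (-0.80, SE 0.21, adjusted p = 0.0019) and overlapped YAPi at 156 and 132. STARD4 had 109 and 133 (-0.79, SE 0.22, adjusted p = 0.0055), meeting YAPi replicate 1 at 133, and FDFT1 143 and 154 (-0.67, SE 0.18, adjusted p = 0.0046), overlapping YAPi at 149 and 161. INSIG1 was higher (0.65, SE 0.12, adjusted p = 3.4e-06). With the block MSMO1 (-0.56), CYP51A1 (-0.53), FADS1 (-0.45) and IDI1 (-0.43) were also lower. Calls numbered 3 without either YAPi library, 1 without either TAZi library or TEADi replicate 1, 5 without YAPi_TAZi replicate 1, 2 without YAPi_TAZi replicate 2 and 0 without TEADi replicate 2. SREBF1, SREBF2, FASN and SQLE were not called in any of these 4 comparisons, with FASN between -0.38 and 0.24. Of the neighbours, ABCA1 was lower in TAZi (-2.04) and higher in TEADi (2.05), and LBR, a sterol reductase of the nuclear envelope, was lower in TEADi (-1.48).

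In set 2, JUNBi gave 0 higher and 2 lower calls of 25 genes tested, against 0.251% and 3.16% of 7966, with a median of 0.088. With log2 of TPM plus 1 the median was 0.26, beside 0.207 for all genes tested. MVD had 782 and 1316 counts in Ctrli and 558 and 532 in JUNBi (log2 fold change -0.94, SE 0.26, adjusted p = 0.009), and FASN 1407 and 1918 against 878 and 934 (-0.87, SE 0.21, adjusted p = 0.0022). The groups did not overlap, but edgeR called 0 (9 at an unadjusted p under 0.05, and 8 by DESeq2). Without Ctrli replicate 3 there were 4 calls and without any other library 0. SCD had 355 and 483 against 196 and 241 (-0.94, SE 0.29, adjusted p = 0.024). INSIG1 (0.21), SREBF1 (-0.52) and SREBF2 (0.16) were not called, and HMGCS1 and SQLE, at 5 to 66.1 counts, were among the 5 not tested. The neighbour SLC25A1 was lower (-2.09, SE 0.22, adjusted p = 8.3e-17), as it was under JUNBi in ER-Src TAM. STAT3i gave 0 calls among the 6 genes tested, against 0% higher and 0.497% lower of 2013 genes, with 3 at an unadjusted p under 0.05 by DESeq2 and by edgeR, and without Ctrli replicate 3 there was 1. FASN had 903 and 1094 counts (-0.74, SE 0.22, adjusted p = 0.044) and both libraries lay below both controls.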

How the data were processed

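The methods name a TruSeq Ribo Profile kit and sequencing on a HiSeq, and the submitters' notes and methods name STAR, RSEM and hg38. The methods name no other kit for RNA-seq. Yet the genes without a poly(A) tail took 0.002784% to 0.01124% of counts in the set 1 controls and set 2. In the other libraries they took 8.712% to 11.76%, so the kit is not certain for every library. The deposited tables hold, per gene and library, RSEM expected counts and TPM made by the authors, with gene length and effective length; replicates were not pooled. Expected counts were rounded to whole numbers. Identifiers other than Ensembl genes took at most 0.109% of the counts and were left out. The main test was DESeq2 1.42.0 in R 4.3.3 with default settings, as the study ran it, separately for each of 23 comparisons, with Benjamini-Hochberg adjustment and a call under 0.01. In the comparisons of 1 set 1 knockdown with the other 3, and in YAPi_TAZi against Ctrli, the dispersion trend was a local regression, because the parametric one could not be fitted. Genes with no adjusted p were counted as not tested. Medians cover all 30 genes. Simulated data with known changes tested the scripts.

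Alternatives were edgeR 4.0.16 quasi-likelihood, TMM size factors, a mean count of at least 10, effective length offsets, a replicate block, 1 fit over all groups, controls of both sets, log2 of TPM plus 1 or 0.1, and each library left out. Replicate numbers come from the titles. Deviations of same-numbered libraries correlated at r of 0.674 to 0.735 among the set 1 knockdowns, and at -0.173 to 0.546 elsewhere.

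The genes and lists were chosen with earlier results of these data known. Values per library are given for INSIG1, SREBF1, SREBF2, HMGCS1, SQLE, FASN and SCD and, per comparison, for up to 4 called genes with the largest absolute fold change and a mean of at least 100 counts; of each neighbouring list up to 3 called genes are named. Other members named with a value were chosen after their values were seen. Counts of 2 libraries per group and their totals limit the precision.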

Additional observations from a re-analysis of the deposited data

Results flagged for a closer look

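Among the 30 genes, 5 had a knockdown effect that differed between TAM and ETH by the interaction test. Under YAPi the log2 fold change was more positive in TAM than in ETH for MVD by 1.03, LSS by 0.87, FDPS by 0.72 and ACLY by 0.66, and under TAZi it was more positive for FDPS by 0.46 and more negative for FASN at -0.81. The controls are shared between the YAPi and TAZi tests, and edgeR called none of the 6.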

How the results depend on the processing

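Counts of genes called moved by more than 1.5 times under these settings, and the cause was not tested. With edgeR, calls were 3 for TAM against ETH, 1 for YAPi TAM, 0 for TAZi TAM, 4 for JUNBi TAM, 1 for TAZi ETH, 0 for the YAPi and 0 for the TAZi interaction, 0 for JUNBi in set 2, and 1 for YAPi, 3 for YAPi_TAZi and 3 for TEADi against the other 3. With 1 fit over all groups they were 2 for TAM against ETH, 5 for YAPi TAM, 0 for TAZi TAM, 5 for STAT3i TAM, 3 for JUNBi TAM, 3 for TAZi ETH, 4 for JUNBi ETH, 1 for the YAPi and 0 for the TAZi interaction and 4 for JUNBi in set 2. With the replicate block they were 5 for TAM against ETH, 4 for YAPi TAM, 2 for TAZi TAM and 5 for STAT3i TAM. They were 3 for TAZi ETH, 1 for the TAZi interaction and 12 for TEADi against Ctrli. Against the other 3 they were 6 for YAPi and 9 for TEADi. Outside set 1, deviations of same-numbered libraries correlated at r of -0.173 to 0.546, and the labels do not say what the number marks. No paired analysis was possible in set 2 because its controls are numbered 3 and 4. With TMM size factors they were 2 each for TAZi, YAPi_TAZi and TEADi against the other 3 and 1 for JUNBi in set 2. With effective length offsets they were 2 for TAZi ETH, 1 for JUNBi ETH, 1 for the TAZi interaction, 0 for JUNBi in set 2, and 1 for YAPi, 2 for YAPi_TAZi and 2 for TEADi against the other 3. With a mean count of at least 10 they were 2 for the YAPi and 1 for the TAZi interaction and 3 for TEADi against the other 3. With controls of both sets they were 3 for YAPi, 6 for TAZi, 7 for YAPi_TAZi and 4 for TEADi against Ctrli. Direction turned for EBP with those controls, at -0.87, -0.69, -0.98 and -0.88 in the same order, and for FADS2 in YAPi_TAZi at 0.01. The median of YAPi_TAZi against Ctrli turned to -0.001 with TMM. It was -0.974 with TPM plus 1 (all genes -0.838) and -1.025 with TPM plus 0.1 (all genes -1.141). This member median was therefore below that of all genes tested with TPM plus 1 and above it with TPM plus 0.1. The median of JUNBi in set 2 ranged from -0.016 without Ctrli replicate 4 to 0.127 without Ctrli replicate 3. With 1 library left out, calls ranged from 1 to 2 for TAM against ETH, 2 to 7 for YAPi TAM, 0 to 2 for TAZi TAM, 3 to 8 for STAT3i TAM, 1 to 7 for JUNBi TAM, 10 to 17 for YAPi ETH, 1 to 3 for TAZi ETH, 0 to 5 for STAT3i ETH and 0 to 10 for JUNBi ETH. For the interactions they ranged from 2 to 5 (YAPi), 0 to 4 (TAZi), 0 to 1 (STAT3i) and 0 to 6 (JUNBi). In set 1 they ranged from 8 to 18 (YAPi), 9 to 16 (TAZi), 8 to 15 (YAPi_TAZi) and 8 to 20 (TEADi) against Ctrli and from 1 to 2, 1 to 4, 1 to 5 and 0 to 5 against the other 3, and in set 2 from 0 to 4 (JUNBi) and 0 to 1 (STAT3i). A group left with 1 library was assumed to vary like the others. With 2 libraries per group and as few as 1411304 counts, a gene without a call cannot be taken as unchanged.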
